A study of Rattus norvegicus with 10 samples.

Results

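Long-chain acyl-CoA synthetases are the 5 enzymes of the Acsl family, Acsl1, Acsl3, Acsl4, Acsl5 and Acsl6, and they were examined in rat β-cells together with Zdhhc6, a gene that lies beside Acsl5 and overlaps it. The members were taken by gene symbol, and the values of their transcripts were summed for each Ensembl gene in each library, which gave 6 genes of the 23918 with values and 9 transcripts. All 6 passed the filter on low counts, which 12941 genes passed. The family was selected on the measured difference of its members between the groups, so every fold change, interval and p-value of a member is a description of these libraries and supports nothing further.

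Islets of adult Sprague-Dawley rats were dispersed, and β-cells were sorted from them by their autofluorescence. The sorted cells were transfected either with a pool of 4 siRNAs against Scrt1, which encodes a zinc finger transcriptional repressor (siScrt1), or with a negative control siRNA (siCtrl), and RNA was extracted 48 h later. Both groups went through sorting and lipid-based transfection, and the labels give no other genetic change in either. There were 5 siCtrl libraries, numbered 1 to 5, and 5 siScrt1 libraries, lettered A to E. The labels do not say whether the libraries came from separate animals or cultures, so the p-values measure the spread between these libraries only.

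Free fatty acids that enter a cell are inert until a synthetase joins them to coenzyme A at the expense of ATP. The Acsl enzymes do this for long chains, each at its own membranes, and the acyl-CoA that they make feeds β-oxidation, the making of triglycerides and phospholipids, and the acylation of proteins. In β-cells acyl-CoA metabolism is studied as a link between fatty acids and insulin secretion. Zdhhc6 encodes a protein palmitoyltransferase of the endoplasmic reticulum, one of the DHHC enzymes that move palmitate from its acyl-CoA to cysteines.

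The promoters of Acsl5 and Zdhhc6 are printed because these were the members whose groups did not overlap, and because Scrt1 encodes a protein that binds DNA. RefSeq places both genes on rat chromosome 1 of the GRCr8 build, Acsl5 on the plus strand and Zdhhc6 on the minus strand, and their gene spans overlap at their 3′ ends, so that the 2 promoters lie at the outer ends of the locus. The windows below run from 250 bases before the RefSeq transcription start to 50 bases after it, 5′ to 3′ on the strand of the gene. They lie at chr1:264294601-264294900 for Acsl5 and at chr1:264361386-264361685 for Zdhhc6. Capitals mark the E-box CAGGTG read on the opposite strand, and all other bases are in lower case.

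Acsl5: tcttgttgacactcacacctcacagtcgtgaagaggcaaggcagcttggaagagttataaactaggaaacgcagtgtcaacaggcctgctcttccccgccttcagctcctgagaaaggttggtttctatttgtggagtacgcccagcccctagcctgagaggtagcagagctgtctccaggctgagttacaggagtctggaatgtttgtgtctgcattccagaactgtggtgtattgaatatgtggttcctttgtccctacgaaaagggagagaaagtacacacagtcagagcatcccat
Zdhhc6: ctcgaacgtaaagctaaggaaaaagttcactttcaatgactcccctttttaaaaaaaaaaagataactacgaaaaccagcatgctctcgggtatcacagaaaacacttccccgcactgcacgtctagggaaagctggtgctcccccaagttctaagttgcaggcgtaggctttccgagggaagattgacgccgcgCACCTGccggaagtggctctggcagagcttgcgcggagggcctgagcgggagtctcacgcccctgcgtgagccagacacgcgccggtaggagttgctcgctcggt

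The GC content was 49.7% in the Acsl5 window and 55% in that of Zdhhc6. The Scratch-type motif CAACAGGTG and its E-box core CAGGTG were searched on both strands, and the longer motif contains the core. CAACAGGTG was found in 0 of the 6 members' windows, and 0.203% of all 33469 rat windows of this length held it. The core was found in 1 member, Zdhhc6, with its first base 55 bases before the start (position -55), and 18.8% of all windows held it. The letters of the core therefore occur in many promoters, and a match is not a measured binding site. RefSeq's single start for Acsl1 and that for Acsl6 lie inside the gene's span, so these windows may not be the promoters that β-cells use.

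The libraries held from 11901342 to 17444034 recovered reads, that is, the scaled estimated counts divided by the value of 1 read. Scrt1 had 152 to 269 reads per library in siCtrl and 24 to 74 in siScrt1, and its level was 8.13 ± 1.58 TPM against 2.14 ± 1.03 TPM (SD, n = 5 each). The log2 fold change of Scrt1 was -2.06 with a standard error of 0.308 and an adjusted p of 0.00618 (limma). All 10 listed β-cell markers were found, and their summed level was 103554 to 166758 CPM (recovered reads relative to the library total) in siCtrl and 105395 to 151655 CPM in siScrt1. All 5 α-cell markers were found, with sums of 213 to 582 CPM and 210 to 463 CPM, almost all of it Gcg, and the 3 δ- and PP-cell markers reached 16.5 to 73.9 CPM and 20.2 to 82.2 CPM. The 8 acinar markers summed to at most 1.00 CPM in siCtrl and 0.588 CPM in siScrt1, with Prss1 and Pnlip at 0 in 9 of the 10 libraries. The 5 duct markers gave 188 to 267 CPM and 201 to 267 CPM, mostly Krt7, while Sox9 reached at most 1.33 CPM. Of 5 endothelial markers 4 were in the table and summed to at most 1.17 CPM and 1.31 CPM, with Vwf at 0 in 9 libraries, and the 6 immune markers summed to 5.41 to 7.77 CPM and 5.22 to 8.55 CPM. The 6 mesenchymal markers ran from 3.71 to 16.8 CPM in siCtrl and from 4.72 to 30.6 CPM in siScrt1, with the highest sum of each group in the library that the deposited table numbers 4 (siCtrl 4 and siScrt1 D).

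All 5 synthetases were expressed in control β-cells, and Acsl5 was the most abundant. Levels between genes are compared in TPM, which accounts for transcript length. The mean level in siCtrl was 37.6 ± 1.52 TPM for Acsl5, 18.6 ± 1.63 TPM for Zdhhc6 and 15.3 ± 1.19 TPM for Acsl4. It was 13.7 ± 2.82 TPM for Acsl6, 13.3 ± 1.84 TPM for Acsl1 and 11.3 ± 1.02 TPM for Acsl3 (SD, n = 5 each). Only Acsl5 stood apart from the next gene in this order, and each of the lower neighbours overlapped the next in their ranges over libraries. Within each siCtrl library Zdhhc6 was above Acsl4 in 5 of 5, Acsl4 above Acsl6 in 4 of 5, Acsl6 above Acsl1 in 2 of 5 and Acsl1 above Acsl3 in 4 of 5. In siScrt1 the order was Acsl5, Zdhhc6, Acsl4, Acsl3, Acsl6 and Acsl1, again with a gap only below Acsl5. The plot of levels by library shows the gap below Acsl5 in both groups.

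**Figure D1:**
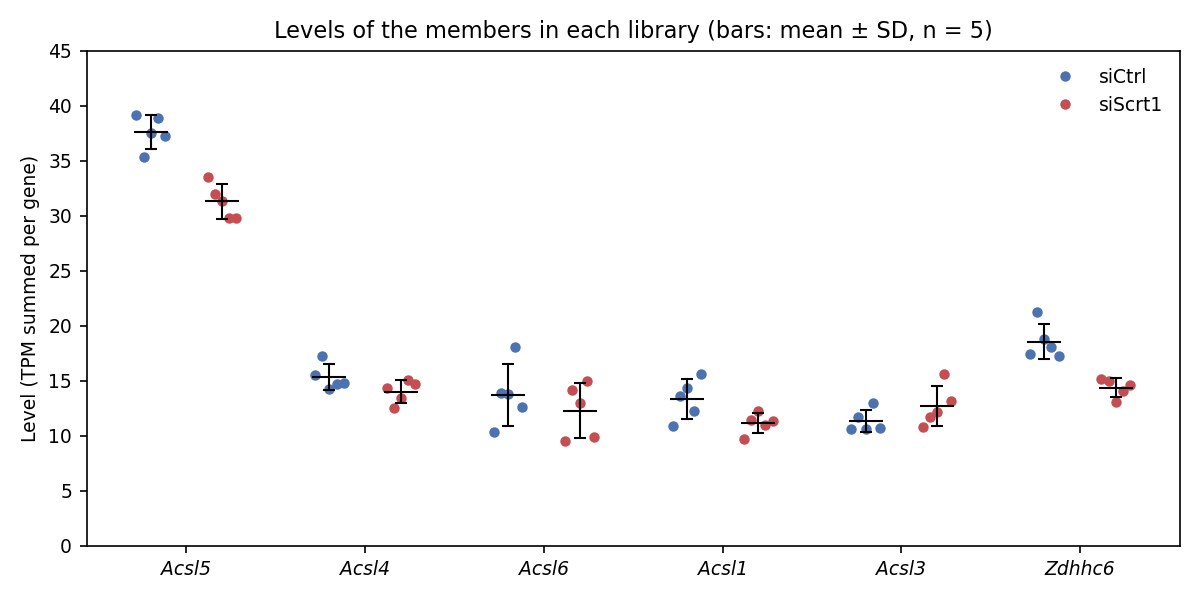
Level of each member in TPM (y axis, linear from 0) in the 5 siCtrl libraries (blue) and the 5 siScrt1 libraries (red); each point is a library and the bars are the mean ± SD. Acsl5 lies above every other member in both groups, at 37.6 TPM in siCtrl and 31.3 TPM in siScrt1, and the groups are separate for Acsl5 and Zdhhc6 and overlap for the other 4 genes.

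The 5 synthetases together reached 91.3 ± 3.71 TPM in siCtrl and 81.4 ± 3.34 TPM in siScrt1 (SD, n = 5 each). The lowest siCtrl library, replicate 1, stood at 86.42 TPM and the highest siScrt1 library, replicate D, at 86.41 TPM, so that the groups met without overlapping. Acsl5 made up 41.3% ± 2.51 of this sum in siCtrl and 38.5% ± 3.08 in siScrt1, and Acsl3 made up 12.4% ± 0.690 and 15.6% ± 1.75. The share of Acsl3 was 11.8% to 13.4% in siCtrl and 13.9% to 18.0% in siScrt1, which do not overlap, and the shares of the other 4 synthetases overlapped between the groups. The level of Acsl3 itself overlapped, at 10.6 to 13.0 TPM in siCtrl and 10.8 to 15.6 TPM in siScrt1. Its share also depends on the sum, of which Acsl5, lower in siScrt1, is the largest part. Sums and shares were not formed for other gene families, so they have no background here.

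Of the 6 members, 2 had an adjusted p under 0.05 and both were lower in siScrt1, beside 1.05% of all genes tested in either direction and 0.68% lowered. They were Acsl5 and Zdhhc6, with p-values that ranked 117th and 120th of the 12941 genes, among 136 genes under the threshold. At an unadjusted p under 0.05 there were 3 members, these and Acsl1, all lower, beside 11.1% of all genes in either direction and 5.75% lowered. The scaled counts of the groups did not overlap for Acsl5 and Zdhhc6, both with siScrt1 lower, beside 3.51% of all genes in either direction and 2.03% with siScrt1 lower. The median log2 fold change of all genes was 0.0035, and that of 5 of the 6 members lay below 0.

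Acsl5 (ENSRNOG00000016265), a synthetase of mitochondria and the endoplasmic reticulum that is also abundant in intestine and liver, has 1 transcript in the table. Its scaled counts in siCtrl 1 to 5 were 1416, 1285, 1372, 1412 and 1354. In siScrt1 A to E they were 1213, 1162, 1133, 1082 and 1080. Every siScrt1 library lay below every siCtrl library, and the spread within each group was small, with a coefficient of variation of 3.89% in siCtrl and 4.95% in siScrt1. The level moved from 37.6 ± 1.52 TPM to 31.3 ± 1.57 TPM (SD, n = 5 each). The log2 fold change was -0.27 (SE 0.0566, 95% interval -0.39 to -0.15), that is, 17.1% lower, with an adjusted p of 0.0416 (limma). These values rest on 961 to 1517 reads per library. As RNA was taken from the whole sorted fraction, fewer expressing cells and less RNA per cell cannot be told apart, here and for the other genes.

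The adjusted p of Acsl5 stayed under 0.05 without siCtrl 2 (0.0412) or siScrt1 A (0.0421). It was 0.0863, 0.0731, 0.108 and 0.102 without siCtrl 1, 3, 4 and 5, and 0.0806, 0.104, 0.140 and 0.120 without siScrt1 B, C, D and E. The fold change ranged only from -0.30 to -0.25 in these 10 fits. Without both libraries numbered 4, where the mesenchymal marker sums were highest, the log2 fold change of Acsl5 was -0.24 with an adjusted p of 0.284, and the part of these cells in the difference was not tested.

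Zdhhc6 (ENSRNOG00000036576), the palmitoyltransferase whose known substrates include calnexin and the IP3 receptor, has 2 transcripts. Its scaled counts summed over both were 413, 502, 446, 424 and 408 in siCtrl 1 to 5. In siScrt1 A to E they were 355, 354, 310, 334 and 347. Here too every siScrt1 library was below every siCtrl library, and siCtrl 2 was the highest of all. The level moved from 18.6 ± 1.63 TPM to 14.4 ± 0.845 TPM (SD, n = 5 each). The log2 fold change was -0.36 (SE 0.0767, 95% interval -0.53 to -0.20), that is, 22.3% lower, with an adjusted p of 0.0425 (limma). It rests on fewer reads than Acsl5, 281 to 489 per library. The adjusted p passed 0.05 when any single library was left out, from 0.0534 without siCtrl 1 to 0.129 without siScrt1 D, while the fold change ranged from -0.39 to -0.31. Without both libraries numbered 4 it was -0.37 with an adjusted p of 0.215.

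**Figure D2:**
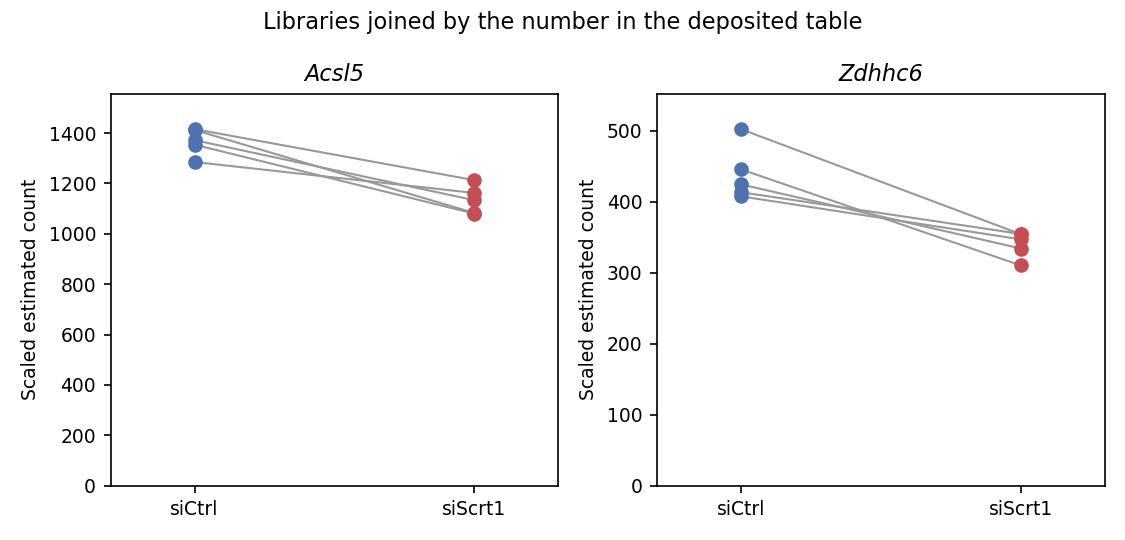
Scaled estimated counts (y axis, linear from 0) of Acsl5 and Zdhhc6 in the siCtrl libraries (blue) and the siScrt1 libraries (red), with a line between libraries that carry the same number in the deposited table. All 5 lines fall in both panels, by 0.14 to 0.38 (Acsl5) and by 0.22 to 0.52 (Zdhhc6) on the log2 scale.

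The libraries of the groups were taken as pairs by the numbers 1 to 5 in the deposited table (siCtrl 1 with siScrt1 A, and so on), which the labels do not state. Between libraries of the same number Acsl5 was lower in 5 of 5 pairs, with log2 differences of -0.38 to -0.14, and Zdhhc6 in 5 of 5, with -0.52 to -0.22. Acsl1 and Acsl6 were also lower in 5 of 5 pairs, Acsl4 in 4 of 5, and Acsl3 was higher in 4 of 5. The share of all genes that were lower in every pair was not counted, so these counts are descriptions only. With the pairs as a block in the fit, 259 genes in all passed the threshold instead of 136, and 132 of them passed in both fits. The block left the same 2 members under the adjusted threshold, beside 2% of all genes. At an unadjusted p under 0.05 it gave 4 members instead of 3, with Acsl6 added, beside 16.1% of all genes.

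Because the genes overlap, reads from the shared stretch could have been divided between Acsl5 and Zdhhc6, and the library kit's handling of strand is not given in the sources used here. The recovered reads of Acsl5, and those of Zdhhc6 summed over its transcripts, were whole numbers in every library. Between the 2 transcripts of Zdhhc6 they were divided in fractions, as in siCtrl 2 (476.2 and 12.8 of 489 reads). Whether the transcript models used for counting share that stretch was not tested. Added together, the 2 genes had a log2 fold change of -0.29 (SE 0.0519, adjusted p 0.0162, limma). The adjusted p of the sum was over 0.05 without siCtrl 4 (0.0512), siScrt1 C (0.0521), siScrt1 D (0.0738) or siScrt1 E (0.0597), and without both libraries numbered 4 (0.171). The deviations of Acsl5 and Zdhhc6 from their group means had a Pearson r of -0.28 over the 10 libraries, given as a description. In gene order, Vti1a, which encodes a SNARE protein of the Golgi, follows Zdhhc6. Its log2 fold change was 0.05 (SE 0.117, adjusted p 0.913, limma) at 17.8 TPM in siCtrl, and its groups overlapped. Gucy2g, on the other side of Acsl5, did not pass the filter. These neighbours were named after their values had been seen.

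**Figure D3:**
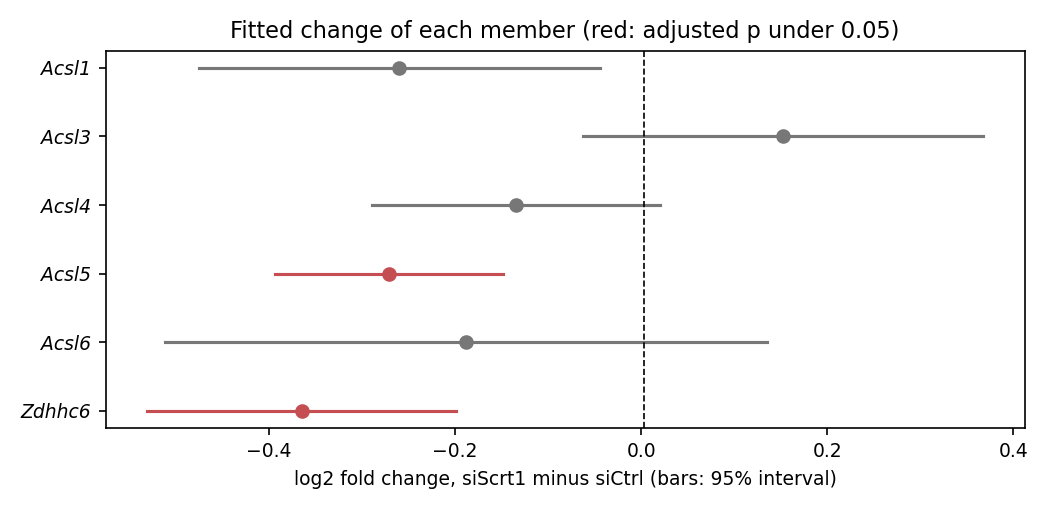
Log2 fold change of each member, siScrt1 minus siCtrl (x axis), with its 95% interval as a bar; red marks an adjusted p under 0.05 (limma) and the dashed line is the median of all genes tested, 0.0035. The points of Acsl5 (-0.27) and Zdhhc6 (-0.36) are red, and of the other 4 only Acsl3 (0.15) lies to the right of 0.

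The other 4 synthetases did not pass the threshold, and their groups overlapped. Acsl1, which channels fatty acids to oxidation in muscle and to storage in fat, had 11.1 ± 0.919 TPM in siScrt1 and a log2 fold change of -0.26 (SE 0.0994, 95% interval -0.47 to -0.04, adjusted p 0.326, limma). This is close to the estimate for Acsl5, with a wider interval in the fit without the block. Its standard error was 0.0667 with the pairs as a block, against 0.0575 for Acsl5, and its adjusted p was then 0.0877 (limma). The scaled counts of Acsl1 were 570, 723, 764, 644 and 794 in siCtrl 1 to 5 and 497, 597, 654, 586 and 576 in siScrt1 A to E. The siCtrl libraries 1 and 4 fell within the range of siScrt1, and the pair of siCtrl 1, siScrt1 A, was the lowest of all 10.

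Acsl6, the synthetase best known from brain, had a log2 fold change of -0.19 (SE 0.149, 95% interval -0.51 to 0.14, adjusted p 0.683, limma). Its scaled counts were 625, 886, 826, 989 and 751 in siCtrl 1 to 5 and 563, 817, 807, 858 and 557 in siScrt1 A to E. It was the most variable member, with a coefficient of variation of 16.8% in siCtrl and 20.5% in siScrt1. The siCtrl and siScrt1 libraries numbered 1 and 5 were the low ones in each group. The fold change was nearer 0 without siCtrl 4 (-0.11), siScrt1 A (-0.11) or siScrt1 E (-0.10). Its standard error was 0.0692 with the pairs as a block, with an adjusted p of 0.216 (limma).

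Acsl4, which prefers arachidonate and other polyunsaturated chains, had 14.0 ± 1.04 TPM in siScrt1 and a log2 fold change of -0.13 (SE 0.0716, 95% interval -0.29 to 0.02, adjusted p 0.525, limma). Its scaled counts were 1097 to 1326 in siCtrl, with a median of 1136, and 957 to 1154 in siScrt1, with a median of 1092, and without siCtrl 2 the fold change was -0.09. Acsl3, a synthetase of the endoplasmic reticulum and of growing lipid droplets, had 12.7 ± 1.82 TPM in siScrt1 and was the one member with a fold change above 0, at 0.15 on the log2 scale (SE 0.0993, 95% interval -0.06 to 0.37, adjusted p 0.614, limma). Its scaled counts were 438 to 537 in siCtrl, with a median of 445, and 447 to 645 in siScrt1, with a median of 503. The highest library of each group for Acsl3 was the one numbered 4, siCtrl 4 and siScrt1 D. Without siScrt1 D the fold change of Acsl3 was 0.08.

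Transcripts were examined for the 3 members that have 2 in the table. The longer Acsl1 transcript, of 3661 bases, made up 81.3% ± 5.27 of the TPM of the gene in siCtrl and 81.2% ± 6.23 in siScrt1, and the 2537-base transcript the rest (SD, n = 5 each). Of the TPM of Acsl6, the 2555-base transcript made up 59.6% ± 6.11 and 61.3% ± 4.36, and the 5899-base transcript the rest. Both transcripts of both genes therefore contributed in β-cells, in shares that overlapped between the groups. The 1679-base transcript of Zdhhc6 made up 96.7% ± 2.02 and 98.4% ± 2.13 of its TPM, and the 1242-base one had at most 17.8 reads in any library and was at 0 in 4 of the 10. In the fit over 17578 transcripts, 0 of the 9 member transcripts passed the threshold (limma), beside 0.415% of all. The 3 with the smallest p-values were the Acsl5 transcript (log2 fold change -0.27, adjusted p 0.0697), the main Zdhhc6 transcript (-0.35, adjusted p 0.0892) and the longer Acsl1 transcript (-0.26, adjusted p 0.513).

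**Figure D4:**
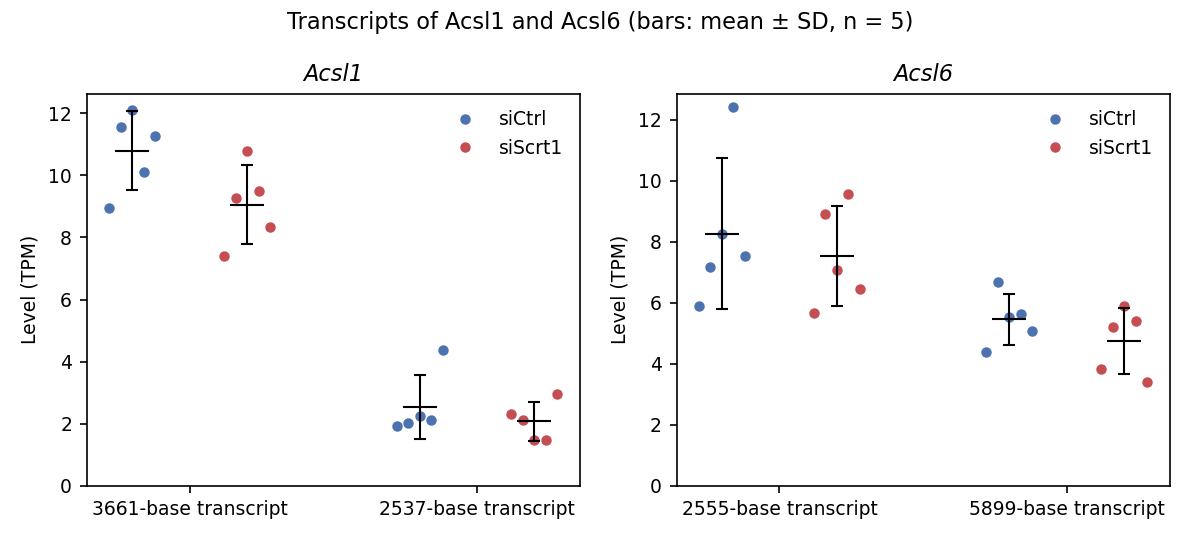
Level in TPM (y axes, linear from 0) of the 2 transcripts of Acsl1 (left) and of Acsl6 (right) in the siCtrl (blue) and siScrt1 (red) libraries; each point is a library and the bars are the mean ± SD. The groups overlap for all 4 transcripts, and siCtrl 5 is the high point of the 2537-base Acsl1 transcript at 4.36 TPM.

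The genes whose deviations from their group means were most like those of Acsl5 over the 10 libraries were Ppm1g (Pearson r 0.960), Cpn1 (0.946) and Kmt2b (0.925), among the 3615 other genes that averaged 50 CPM or more. For Zdhhc6 they were Npm1 (0.915), Faf1 (0.910) and Cop1 (0.878), among 3616. They were picked as the highest values of a search over these genes and libraries, which share depth and scaling, and are descriptions only.

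Around the family, 9 lists of genes of acyl-CoA metabolism were read in the same fit, with 147 of 189 listed genes tested. Of these 147, 2 were lowered and 0 raised (limma), or 1.36%, beside 1.05% of all genes, and 21 had an unadjusted p under 0.05, beside 11.1% of all genes. Both lowered genes belong to the list of protein palmitoylation and depalmitoylation. In the other 8 lists 0 of 118 genes passed the threshold (limma), and 15 had an unadjusted p under 0.05. With the pairs as a block 35 of the 147 had an unadjusted p under 0.05 (limma), beside 16.1% of all genes. At the adjusted threshold, which 2% of all genes passed with the block, the same 2 genes were lowered and 3 others were raised. These were Acss3, a mitochondrial synthetase for short chains, at 0.59 on the log2 scale (adjusted p 0.0064 with the block and 0.123 without it, limma), Lpcat1, a lysophospholipid acyltransferase, at 0.37 (0.0471 and 0.326), and Srebf2 at 0.29 (0.0380 and 0.326). Acss3 and Lpcat1 were named after their values had been seen.

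The palmitoylation list held 29 tested genes other than Zdhhc6, of which 2 were lowered and 0 raised, beside 0.68% of all genes lowered, with a median log2 fold change of -0.08. Of the 29 fold changes 15 lay below 0, and the rest lay above it. Zdhhc20, a palmitoyltransferase of the plasma membrane, had scaled counts of 387, 511, 426, 468 and 494 in siCtrl 1 to 5 and of 376, 318, 301, 321 and 352 in siScrt1 A to E. The groups did not overlap, as in 2.03% of all genes with siScrt1 lower, and siCtrl 1 stood close above siScrt1 A. Its level was 17.0 ± 1.82 TPM in siCtrl and 12.5 ± 1.16 TPM in siScrt1, and its log2 fold change was -0.45 (SE 0.0927, adjusted p 0.0389, limma). Golga7, an accessory protein of DHHC enzymes at the Golgi, had scaled counts of 793, 1006, 1005, 986 and 948 in siCtrl 1 to 5 and of 760, 757, 779, 699 and 700 in siScrt1 A to E, again without overlap. Its level was 33.1 ± 3.05 TPM in siCtrl and 25.9 ± 1.32 TPM in siScrt1, with a log2 fold change of -0.35 (SE 0.0752, adjusted p 0.0439, limma).

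Leaving out 1 library took the adjusted p of Zdhhc20 over 0.05 for every library but siCtrl 1 (0.0171) and siScrt1 A (0.0328), up to 0.117 without siScrt1 D. That of Golga7 went over 0.05 for every library but siCtrl 1 (0.0084), up to 0.140 without siScrt1 D. The adjusted p of Zdhhc20 and of Golga7 was also over 0.05 without the filter on low counts (0.0552 and 0.0629), with log2(TPM + 1) (0.0529 and 0.0542), with log2(TPM + 0.1) (0.0519 and 0.0550) and without both libraries numbered 4 (0.231 and 0.273). Selenok, a selenoprotein that works with Zdhhc6, was the most abundant gene of the list at 106 ± 7.87 TPM in siCtrl and had a log2 fold change of -0.16 (SE 0.0972, adjusted p 0.589, limma). Ppt1, a lysosomal thioesterase that removes palmitate, stood at 39.7 ± 3.20 TPM with -0.09 (SE 0.0817, adjusted p 0.742, limma).

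The lists of enzymes that use or make acyl-CoA had medians near that of all genes. Of 11 tested genes for other acyl-CoA synthetases and fatty acid transport the median log2 fold change was -0.0016, and Aacs, which activates acetoacetate, stood at 23.9 TPM in siCtrl and the fatty acid binding protein Fabp5 at 16.6 TPM. Of 19 genes of mitochondrial import and β-oxidation the median was -0.02. Hadh, the short-chain hydroxyacyl-CoA dehydrogenase, reached 712 ± 82.5 TPM in siCtrl with a log2 fold change of 0.0052 (SE 0.0959, adjusted p 0.992, limma), and Hadhb, the β subunit of the trifunctional protein, 76.2 TPM. Of 13 peroxisomal genes the median was -0.0082, with Phyh, which starts the oxidation of phytanic acid, at 68.3 TPM and the lipid carrier Scp2 at 58.4 TPM. For 14 genes of acyl-CoA hydrolysis and binding it was 0.0036, with the binding proteins Acbd3 at 35.0 TPM and Acbd5 at 34.6 TPM.

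The lists on fat synthesis, on storage and lipolysis and on lipid transcription factors had medians above 0. The median was 0.07 for 20 glycerolipid acyltransferases and lipins, with 7 of them below 0. The most abundant in siCtrl were the cholesterol acyltransferase Soat1 (147 TPM, log2 fold change -0.14) and the lysophospholipid acyltransferase Lpcat3 (72.6 TPM, -0.08). For 20 genes of fatty acid synthesis, elongation and desaturation the median was 0.08, with 5 of them below 0. Acly, which makes cytosolic acetyl-CoA, led this list (444 TPM, log2 fold change 0.01), followed by the desaturase Scd2 (175 TPM, 0.13). For 8 lipid droplet and lipolysis genes the median was 0.17, with 3 of them below 0. The 2 most abundant were among these 3, the droplet coat gene Plin2 (21.3 TPM, log2 fold change -0.12) and the lipase cofactor Abhd5 (8.33 TPM, -0.04). Plin1, Lipe, Cidec and Plin3, all above 0, stood at only 0.19 to 1.18 TPM in siCtrl, and Lipa, also above 0, stood at 6.47 TPM. For 13 lipid transcription factors and their regulators the median was 0.15, with 3 of them below 0. Of these 13, 5 had an unadjusted p under 0.05 (limma), beside 11.1% of all genes. Srebf2, the activator of cholesterol synthesis genes, stood at 24.0 TPM and Insig2, which retains the SREBP complex, at 22.7 TPM. Without the block, 0 of the 61 tested genes of these 4 lists passed the adjusted threshold, beside 1.05% of all genes. An unadjusted p under 0.05 was found for 11 of the 61 (limma), beside 11.1% of all genes.

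**Figure D5:**
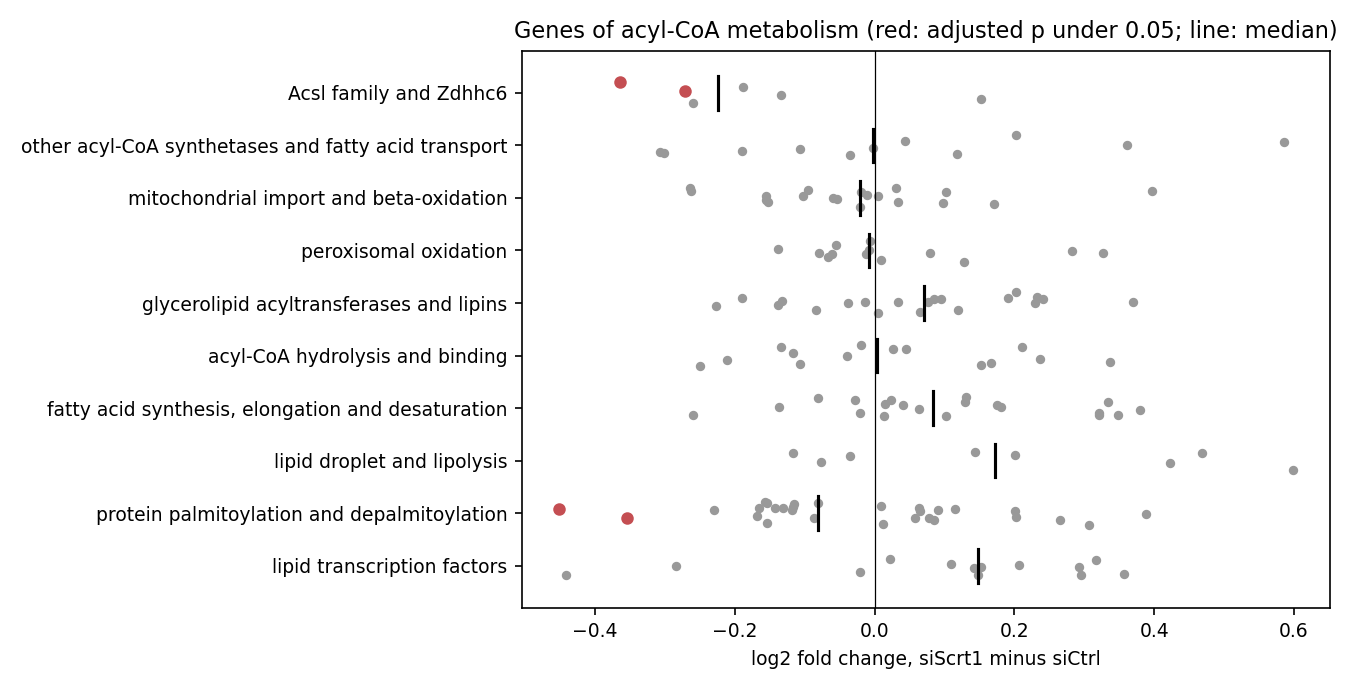
Log2 fold change, siScrt1 minus siCtrl (x axis), of each tested gene of the Acsl family with Zdhhc6 and of 9 lists of acyl-CoA metabolism (rows); each point is a gene, red marks an adjusted p under 0.05 (limma) and the vertical bar is the median of the list. Red points appear in the first row (Acsl5 and Zdhhc6) and in the palmitoylation row (Zdhhc20 at -0.45 and Golga7 at -0.35), and the medians of the 9 lists run from -0.08 to 0.17.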

How the data were processed

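RNA of sorted rat β-cells was sequenced as single-end reads with the TruSeq kit. The authors aligned the reads to the Rnor6 transcriptome with kallisto and scaled them with Sleuth (FastQC and Trimmomatic also stand in their processing notes, all without versions). The deposited signal values are an estimated count and a TPM for 31715 transcripts, both scaled between libraries, so no count model was used; 9363 rows without values were left out. TPM totals therefore ran from 821278 to 1153952. The value of 1 read, 0.842 to 1.26 scaled counts, was taken in each library as the most frequent of its small scaled counts. Dividing by it gave recovered reads, whole within 0.001 for 75.3% of gene values, and from these CPM.

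Scaled counts summed per gene were tested as log2(value + 0.5), which understates changes of low genes, with limma 3.58.1 (trend) in R 4.3.3 and group as the only term, where genes reached the CPM of 10 reads in a median library in at least 5 libraries and 15 reads in all. Transcripts needed 5 reads in at least 47% of libraries. P-values were adjusted after Benjamini and Hochberg over all features tested, with a threshold of 0.05. The fits were also run on simulated counts, in which every change was larger than those of the members. Calls of changes as small as those of the members were therefore not tested there. Alternatives were median-ratio and upper-quartile scaling, no filter or a filter 3 times higher, a pseudocount of 5, TPM with 1 or 0.1 added, limma-voom on recovered reads, a block for the number in the table, leaving out each library, and, chosen after seeing the data, leaving out both libraries numbered 4. Libraries of the same number deviated together from their group means (correlations of 0.131 to 0.351 over genes in 5 pairs, best with the own number for 4), and the numbers were taken as pairs.

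The named genes were the members, Scrt1, the genes under the threshold and the 2 most abundant of each list, and the 3 genes most like Acsl5 and Zdhhc6. The members and lists were chosen with earlier results of these data known. Promoters came from RefSeq (GRCr8), where all 6 members matched by symbol, while the transcripts are of Rnor6, and no coordinates were carried between builds. Protein sequences were not used here. Plots used Python 3.11.15 and matplotlib 3.10.9.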

Additional observations from a re-analysis of the deposited data

Results flagged for a closer look

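The share of the 3661-base transcript in the TPM of Acsl1 was 72.1% in siCtrl replicate 5, against 82.3% to 85.1% in the other siCtrl libraries. The gap to the nearest of them was 0.782 of the range of the group, above the 95% critical value of 0.71 for 5 libraries. This group was the only 1 flagged of 28 groups of libraries tested in this way, and chance alone gives about 1 in 20.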

How the results depend on the processing

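Under all alternatives run, the fold changes of all 6 members kept their direction, and no scaling moved the median of all genes by 0.1. The number of members under the threshold was 0 without a filter on low values, 1 with log2(TPM + 1), 1 with log2(TPM + 0.1), 0 without both libraries numbered 4, an alternative chosen after seeing the data, and 0 to 1 with 1 library left out. Acsl5 stood at -0.27 (adjusted p 0.0511) without the filter, at -0.26 (0.0530) and -0.27 (0.0546) with the TPM scales, at -0.24 (0.284) without both libraries numbered 4, and at -0.30 to -0.25 with 1 library left out. Zdhhc6 stood at -0.36 (0.0552) without the filter, at -0.37 (0.215) without both libraries numbered 4 and at -0.39 to -0.31 with 1 left out, and the sum of both genes at -0.27 (0.171) and at -0.32 to -0.28 (all limma). With the replicate block 259 genes passed the threshold instead of 136, the adjusted p was 0.0436 for Acsl5 and 0.0386 for Zdhhc6, and it changed no call of a member, of a member transcript or of their sum. Among the list genes it kept Golga7 and Zdhhc20 and added Acss3, Lpcat1 and Srebf2, and over all genes it added 127 and dropped 4; its use for transcripts and list genes was chosen after seeing the data. Without both libraries numbered 4, 25 genes passed, and with 1 library left out 62 (without siScrt1 D) to 133. The cause of these changes was not tested. Of the 6 members, 3 kept their place in the order of levels in siCtrl with CPM per kilobase of the longest transcript in place of TPM, and Acsl5 stayed first. Of the 6 members Zdhhc6 had the fewest reads, with 281 at the least in a library.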
